A study of Mus musculus with 6 samples.

Results

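Cell cycle and proliferation genes were followed in macrophages isolated from mouse liver, as 40 named genes of DNA replication, cyclin control and mitosis. All 40 were present by gene name in the deposited table of 14918 genes, and all 40 passed the filter on low counts, which left 14361 genes for testing. The livers came from C57BL/6 mice fed a high fat diet or a normal diet for 18 weeks from about 6 weeks of age, with 3 mice per diet and 1 RNA-seq library per mouse. The groups share strain, tissue and duration, and no transgene or drug is named for either. The sources used here do not describe how the macrophages were isolated. The Kupffer cell marker Clec4f stood at 6564 CPM (reads of a gene over the library size, scaled by the trimmed mean of M-values) in high fat fed mice and 7916 CPM in normal diet mice, so the defining marker of resident liver macrophages was abundant in both groups. Where a pair or series of values follows without a diet, high fat comes first. Total counts per library lay between 17470439 and 23610956. In bulk RNA a lower level can come from fewer cells of a type or from less RNA per cell, and these cannot be told apart.

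A dividing cell first licenses its replication origins by loading the MCM helicase, then copies its DNA with the help of the sliding clamp PCNA and an enlarged nucleotide supply, and then enters mitosis under the control of cyclin B and Cdk1. Early genes of this programme are known targets of E2F factors, while late genes are known targets of the MuvB, B-Myb and FoxM1 complex, which reads a promoter element called the CHR. Resident macrophages of the liver are known to maintain themselves largely by slow local division, and most of them are out of cycle at any moment.

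Promoters of 33 of the 40 members were found by symbol in RefSeq sequences of GRCm38.p6. Aurkb, Ccna2, Ccne2, Kif20a, Mcm4, Stmn1 and Tpx2 had no entry. The window ran from 250 bases before to 30 bases after the transcription start. The letters searched on both strands were TTTGAA and TTCGAA for the CHR, CCAAT for the CCAAT box, and TTTCCCGC, TTTCGCGC, TTTGGCGC and TTTGCCGC for E2F. CHR letters were found in 16 of the 33 member promoters (48.5%), against 18.6% of 27025 promoters of all genes in the same table. CCAAT was found in 27 (81.8%, against 36.6%) and the E2F letters in 6 (18.2%, against 2.2%). By role, the CHR letters were present in 4 of 6 spindle promoters, 4 of 7 promoters of mitotic kinase, checkpoint and APC/C genes and 3 of 8 licensing promoters, while the E2F letters were present in 5 of 8 licensing promoters and, outside them, in that of Cdk1. Member windows had a median GC content of 58.6%, against 52.5% for all. A match describes letters and not a bound site. The 6 windows printed here are those of Mki67, the usual marker of cycling cells, of 3 late genes whose highest library was more than 2 times their lowest (Cdc20, Ube2c and Cdk1), and of the helicase genes Mcm3 and Mcm5. Capitals mark the letters searched, on either strand, and matches run together in Mcm5, where E2F letters of both strands overlap, and in Ube2c, where CCAAT letters of both strands overlap.
Mki67, chr7:135716350-135716629, minus strand: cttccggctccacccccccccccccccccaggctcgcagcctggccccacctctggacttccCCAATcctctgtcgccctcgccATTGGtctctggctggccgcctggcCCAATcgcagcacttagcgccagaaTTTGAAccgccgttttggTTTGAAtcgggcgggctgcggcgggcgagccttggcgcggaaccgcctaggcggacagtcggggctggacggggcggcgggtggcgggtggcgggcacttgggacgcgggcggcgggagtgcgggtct
Cdc20, chr4:118437314-118437593, minus strand: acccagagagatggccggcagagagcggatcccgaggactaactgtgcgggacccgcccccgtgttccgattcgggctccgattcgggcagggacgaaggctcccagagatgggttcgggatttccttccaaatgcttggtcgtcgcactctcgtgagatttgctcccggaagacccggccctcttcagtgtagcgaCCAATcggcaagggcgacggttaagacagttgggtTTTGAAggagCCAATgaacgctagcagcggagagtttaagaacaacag
Ube2c, chr2:164769679-164769958, plus strand: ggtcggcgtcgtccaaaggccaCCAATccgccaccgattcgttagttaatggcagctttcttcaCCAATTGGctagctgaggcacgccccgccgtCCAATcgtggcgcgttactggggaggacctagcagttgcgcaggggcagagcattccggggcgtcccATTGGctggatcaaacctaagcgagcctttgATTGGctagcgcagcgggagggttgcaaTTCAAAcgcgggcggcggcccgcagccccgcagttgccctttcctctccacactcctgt
Cdk1, chr10:69352883-69353162, minus strand: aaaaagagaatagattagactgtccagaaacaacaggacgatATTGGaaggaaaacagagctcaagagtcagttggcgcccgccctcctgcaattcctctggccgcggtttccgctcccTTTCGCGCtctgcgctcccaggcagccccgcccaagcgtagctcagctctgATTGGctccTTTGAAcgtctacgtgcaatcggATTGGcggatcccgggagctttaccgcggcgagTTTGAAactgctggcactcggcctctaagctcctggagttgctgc
Mcm3, chr1:20820283-20820562, minus strand: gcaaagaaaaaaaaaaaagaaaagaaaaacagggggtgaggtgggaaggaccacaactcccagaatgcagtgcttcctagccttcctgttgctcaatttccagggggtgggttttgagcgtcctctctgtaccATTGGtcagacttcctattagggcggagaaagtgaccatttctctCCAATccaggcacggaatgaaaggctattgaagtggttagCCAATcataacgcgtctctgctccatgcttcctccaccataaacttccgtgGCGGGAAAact
Mcm5, chr8:75109259-75109538, plus strand: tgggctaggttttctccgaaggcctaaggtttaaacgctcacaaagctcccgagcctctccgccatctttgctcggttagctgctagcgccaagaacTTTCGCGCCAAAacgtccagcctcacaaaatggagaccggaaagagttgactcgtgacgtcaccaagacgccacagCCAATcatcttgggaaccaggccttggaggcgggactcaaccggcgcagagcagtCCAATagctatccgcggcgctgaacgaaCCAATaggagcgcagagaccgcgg
Cdk1 held letters of all 3 kinds, Mki67, Cdc20 and Ube2c held CHR and CCAAT letters without E2F letters, and Mcm3 and Mcm5 held CCAAT and E2F letters without CHR letters. The helicase genes were not alike in this. The Mcm6 window matched Mcm3 and Mcm5, while that of Mcm2 held CHR and CCAAT letters without E2F letters and that of Mcm7 held letters of all 3 kinds.

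The whole set was expressed in every library, at levels that spanned a wide range. On the deposited FPKM scale, which corrects for gene length, mean levels over the 6 libraries ran from 0.763 FPKM for Cenpf, a kinetochore protein, to 105 FPKM for Pcna. The median gene of the table stood at 6.05 FPKM, and 18 of the 40 members lay above it. Stmn1 (stathmin, which destabilises microtubules) at 37.6 FPKM, the chromatin protein gene Hmgb2 at 38.6 FPKM and the thymidine kinase gene Tk1 at 26.4 FPKM followed Pcna. Mki67, the antigen used to count cycling cells, was at 9.57 FPKM, and the G1/S cyclins Ccne1 and Ccne2 were at 1.66 and 0.980 FPKM. The mitotic kinase, checkpoint and APC/C members lay between 2.37 and 8.10 FPKM.

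No cell cycle member differed between the diets past the threshold. At an edgeR quasi-likelihood adjusted p of 0.05, 0 of 40 members rose in high fat fed mice and 0 fell, where 0.634% of all genes were called (0.446% higher, 0.188% lower), and the smallest adjusted p of a member was 0.294 (Mcm3). At an unadjusted p of 0.05 the count was also 0, where 18.6% of all genes passed. DESeq2 called 0 of the 40 (8.08% of all genes) and limma voom 0 (81 of all 14361 genes). Likewise 0 of the 40 had an adjusted p under 0.05 in the authors' deposited table, where 7.98% of all genes did. Groups that do not overlap, with all 3 libraries of a diet above all 3 of the other, were seen for 0 members and for 25.3% of all genes. Log2 fold changes (high fat diet over normal diet) lay between -0.35 for Tk1 and 0.60 for Ccnb1, with 26 above 0 and 14 below (50% of all genes were above 0). Their median was 0.11, and that of all genes tested rounded to 0.00. The median moved both ways with the libraries included. It was -0.16 without high fat diet replicate 2 (9 members above 0, 31 below) and -0.04 without normal diet replicate 2 (18 above 0, 22 below), and it was 0.23 and 0.21 without high fat diet replicates 1 and 3 in turn, and 0.21 without replicate 1 of the normal diet. With the hepatocyte marker level of each library as a covariate it was 0.64 (37 of 40 above 0). The test called 0 members in each of these fits, with between 0 and 7 at an unadjusted p under 0.05. Over all genes it called between 0 and 4, or 1385 without normal diet replicate 2. Unadjusted, 7 members passed with the covariate, where 873 of 14361 genes did. Without high fat diet replicate 2, 5 members passed, where 1962 of 14639 genes did. Without normal diet replicate 2, 4 members passed, where 4237 of 14669 genes did.

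**Figure D1:**
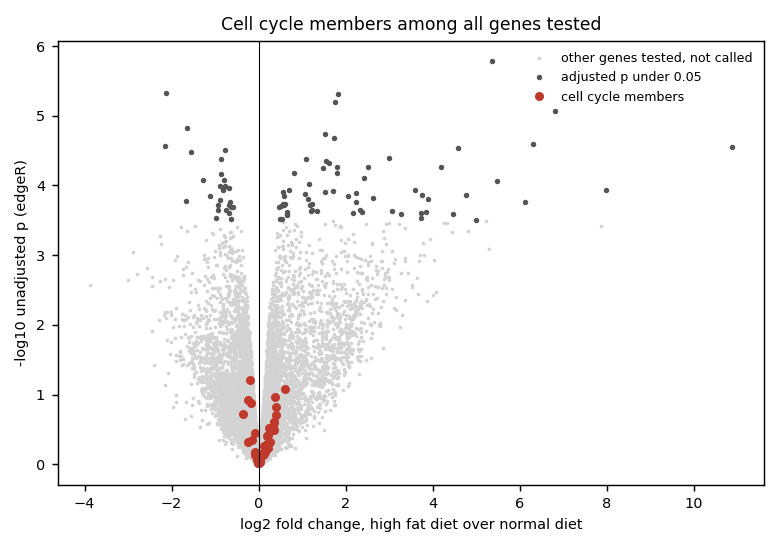
Log2 fold change (x axis) against the unadjusted edgeR p on a -log10 scale (y axis) for 14361 genes tested, with the 40 cell cycle members in red and genes past an adjusted p of 0.05 in dark grey. The members lie low and near the centre, between log2 fold changes of -0.35 and 0.60, and none reaches the called genes.

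The precision behind this absence of calls differed between members. The 95% interval of the log2 fold change lay wholly within 2-fold in either direction for 33 of the 40 members, as it did for 68.2% of all genes. All 9 licensing and fork members, all 5 nucleotide supply and methylation members and all 3 chromatin members were among the 33. The 7 whose interval reached past 2-fold were Ccnb1, Ccne1, Ube2c, Kif23, Prc1, Nusap1 and Cenpf. For Mki67 the interval ran from -0.46 to 0.66, and for Ccnb1 from -0.10 to 1.30. A 2-fold change in Mki67 thus lay outside its interval, and one in Ccnb1 did not.

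**Figure D2:**
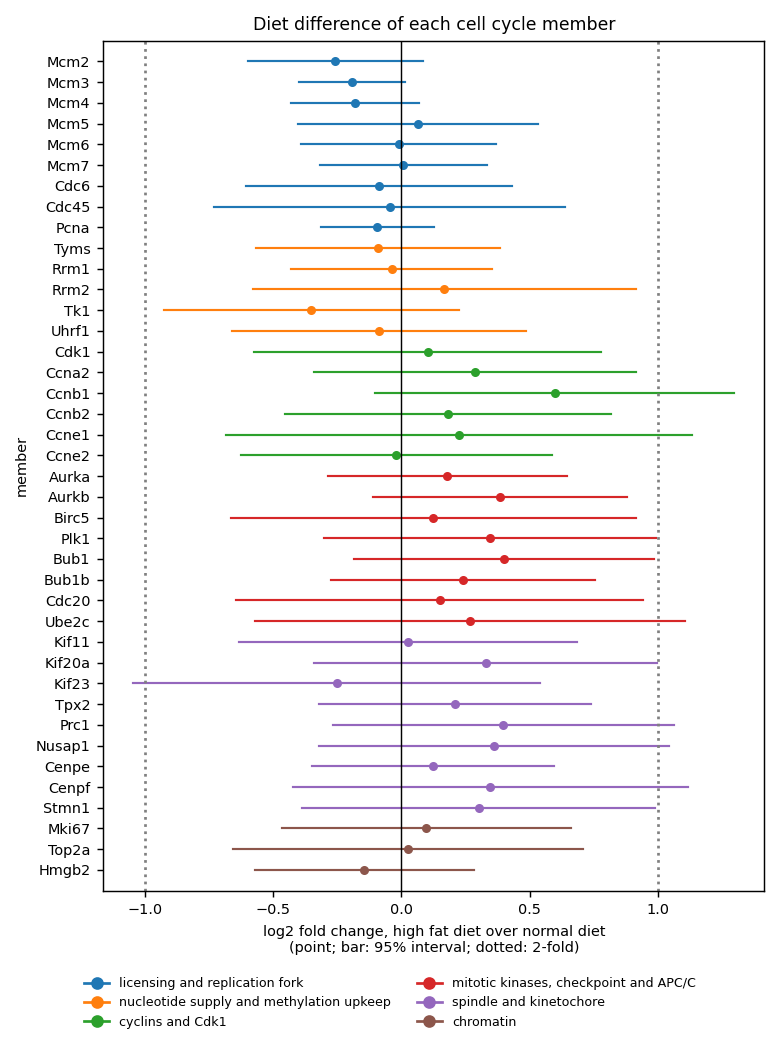
Log2 fold change of each member (x axis, high fat diet over normal diet) with its 95% interval as a bar, coloured by role, and dotted lines at 2-fold in either direction. Every interval crosses 0, and those of the MCM genes and Pcna are among the shortest.

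The licensing and replication fork members showed the smallest median spread between mice. Mcm2 to Mcm7 encode the subunits of the replicative helicase. Mcm3 (ENSMUSG00000041859, chromosome 1, 20802968 to 20820312, mm10) stood at 59.5, 67.7 and 60.5 CPM in replicates 1 to 3 of the high fat diet and at 71.9, 66.2 and 76.4 CPM in normal diet replicates 1 to 3. Replicate 2 of each diet crossed over. Its log2 fold change was -0.19 ± 0.09 (SE; adjusted p = 0.294 in edgeR). Mcm2 was at 28.8, 39.2 and 33.5 CPM in high fat fed mice and at 39.7, 35.5 and 46.1 CPM in normal diet mice, and Mcm4 was at 35.6, 41.7 and 40.04 CPM and at 44.3, 39.7 and 48.8 CPM. In both, high fat diet replicate 1 was lowest, normal diet replicate 3 highest, and the groups overlapped (log2 fold changes -0.26 ± 0.14 and -0.18 ± 0.10; SE, adjusted p = 0.391 and 0.410 in edgeR). Mcm5 stood at 38.5, 62.9 and 43.4 CPM and at 49.6, 39.99 and 48.6 CPM, and here high fat diet replicate 2 was the highest library. Pcna, the sliding clamp, varied least of all members. It was at 142, 167 and 155 CPM in high fat fed mice and at 174, 152 and 168 CPM in normal diet mice, a 1.23-fold range over all 6 libraries. Mcm6, Mcm7, the origin factor Cdc6 and the helicase activator Cdc45 had log2 fold changes between -0.09 and 0.01.

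Tk1 and the ribonucleotide reductase subunit gene Rrm2 encode enzymes that supply deoxynucleotides. Tk1 stood at 50.9, 75.6 and 47.3 CPM in high fat fed mice and at 93.1, 59.0 and 69.3 CPM in normal diet mice. The highest library was normal diet replicate 1, and high fat diet replicate 2 lay above the remaining normal diet libraries. Rrm2 was at 15.6, 29.8 and 14.9 CPM and at 22.3, 15.3 and 16.0 CPM, so that high fat diet replicate 2 was close to 2 times the other high fat diet mice while the diets overlapped. Rrm1, the large subunit of the same enzyme, the thymidylate synthase gene Tyms and Uhrf1, which carries DNA methylation through replication, had log2 fold changes between -0.09 and -0.04.

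Among cyclins, Ccnb1 (ENSMUSG00000041431, chromosome 13, 100778650 to 100786570, mm10) had the largest log2 fold change of any member. It stood at 7.005, 14.4 and 7.79 CPM in high fat fed mice and at 7.11, 5.84 and 6.27 CPM in normal diet mice. High fat diet replicate 2 alone lay far above, and replicate 1 of the high fat diet lay below replicate 1 of the normal diet. The log2 fold change was 0.60 ± 0.29 (SE; adjusted p = 0.334 in edgeR), and 0.21 without high fat diet replicate 2. Ccna2, the cyclin of S and G2 phase, was at 12.6, 21.3 and 13.2 CPM and at 16.5, 10.6 and 11.4 CPM, and Cdk1, the mitotic kinase, at 12.7, 25.9 and 15.1 CPM and at 19.1, 13.8 and 17.01 CPM. Both were highest in high fat diet replicate 2 and next highest in normal diet replicate 1. The E-type cyclins, which drive entry into S phase, were low. Ccne1 was at 3.34, 4.53 and 2.86 CPM in high fat fed mice and at 3.73, 1.58 and 3.83 CPM in normal diet mice, where replicate 2 was the lowest library. Ccne2 was at 2.14, 3.45 and 3.20 CPM and at 3.13, 2.84 and 2.93 CPM.

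The group of mitotic kinase, spindle checkpoint and anaphase-promoting complex (APC/C) genes, which also held Birc5, shared a pattern. All 8 were highest in high fat diet replicate 2, and 6 of the 8 were lowest in normal diet replicate 2. Aurkb, the kinase of the chromosomal passenger complex, was at 16.9, 22.1 and 14.7 CPM in high fat fed mice and at 16.998, 12.2 and 11.9 CPM in normal diet mice (log2 fold change 0.38 ± 0.21; SE, adjusted p = 0.376 in edgeR). Bub1, a kinase of the spindle checkpoint, was at 8.34, 11.7 and 7.66 CPM and at 8.88, 5.58 and 6.46 CPM, and Bub1b, its partner in the checkpoint, at 19.3, 31.2 and 21.6 CPM and at 24.4, 17.1 and 19.6 CPM. In all 3 genes normal diet replicate 1 sat among the high fat diet libraries. Plk1, a kinase of mitotic entry, was at 8.77, 15.2 and 7.58 CPM and at 8.93, 7.89 and 7.91 CPM, so high fat diet replicate 3 was its lowest library and replicate 2 its highest. The log2 fold changes of Aurka, Birc5 (survivin), Cdc20 and the ubiquitin-conjugating enzyme gene Ube2c lay between 0.13 and 0.27, with adjusted p of 0.668 or more in edgeR.

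Spindle and kinetochore members varied most by role, with a median 2.12-fold range between the highest and lowest library. For the licensing members the median range was 1.42-fold, for all 40 members 1.88-fold and for all genes tested 1.52-fold. All 9 spindle members were highest in high fat diet replicate 2. Prc1, which bundles the central spindle, was at 15.3, 26.8 and 16.3 CPM in high fat fed mice and at 19.2, 12.2 and 12.9 CPM in normal diet mice. Nusap1, a microtubule-binding protein of the spindle, was at 9.58, 17.3 and 10.4 CPM and at 12.5, 8.16 and 8.30 CPM, and the mitotic kinesin gene Kif20a at 5.77, 11.7 and 7.24 CPM and at 7.52, 6.16 and 5.92 CPM. Each of these showed the same order of the leading libraries, with high fat diet replicate 2 first and normal diet replicate 1 second. Stmn1 was at 34.5, 63.8 and 33.9 CPM and at 41.9, 28.8 and 36.4 CPM. Kif23, a kinesin of cytokinesis, was the spindle member with a log2 fold change below 0 (-0.25 ± 0.33; SE, adjusted p = 0.724 in edgeR), and in it high fat diet replicate 1 was the lowest library.

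Of the chromatin members, Mki67 (ENSMUSG00000031004, chromosome 7, 135689788 to 135716379, mm10) stood at 84.6, 132 and 83.1 CPM in high fat fed mice and at 114, 75.7 and 89.6 CPM in normal diet mice. Top2a, the topoisomerase that untangles chromosomes, was at 53.4, 100.2 and 63.6 CPM and at 88.8, 53.9 and 70.3 CPM. Both diets held a high library (high fat diet replicate 2, normal diet replicate 1), and the remaining libraries overlapped. The group means were 99.9 ± 27.8 and 93.3 ± 19.7 CPM for Mki67 and 72.4 ± 24.6 and 71.0 ± 17.5 CPM for Top2a (SD, n = 3), with log2 fold changes of 0.10 ± 0.23 and 0.03 ± 0.28 (SE; adjusted p = 0.860 and 0.970 in edgeR). Hmgb2, which bends DNA, departed from this order. It stood at 88.1, 111 and 98.1 CPM and at 125, 81.4 and 121 CPM, highest in normal diet replicate 1.

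**Figure D3:**
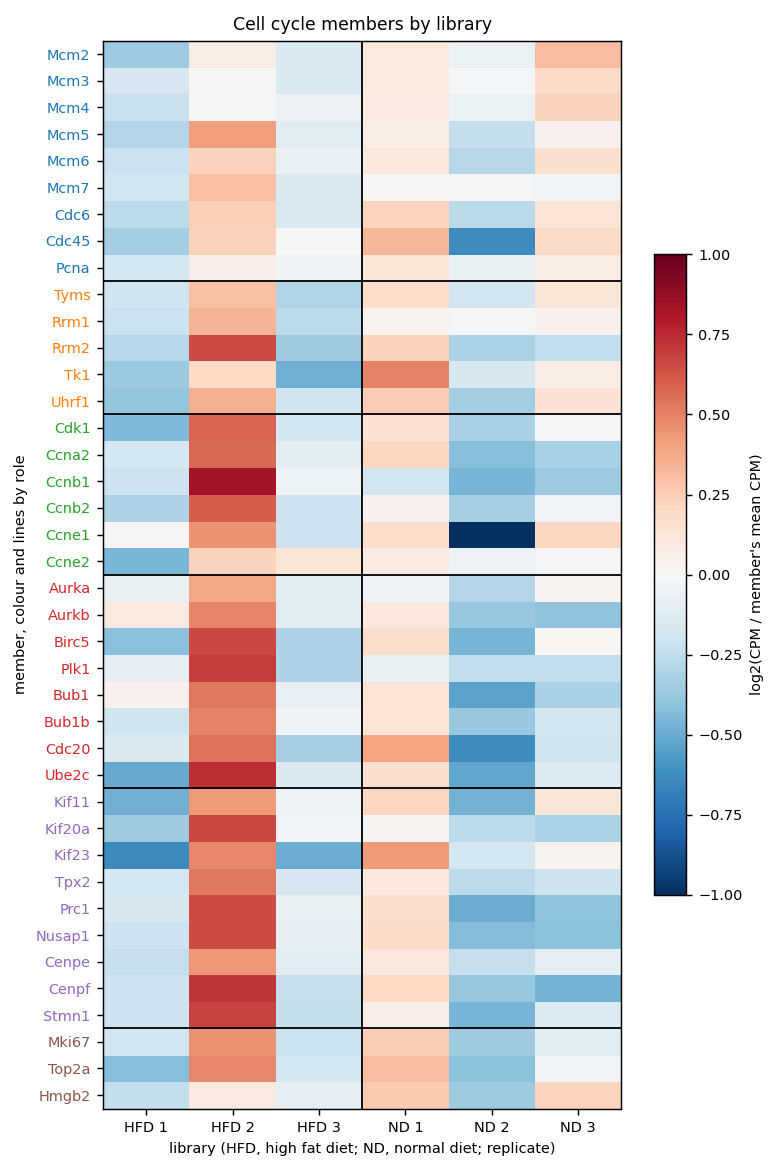
Log2 of each member's CPM over its own mean across the 6 libraries (colour scale), with members as rows ordered by role and libraries as columns. The column of high fat diet replicate 2 is red for the cyclins, kinases and spindle genes, normal diet replicate 1 is weakly red, and Mcm2, Mcm3 and Mcm4 differ in being highest in normal diet replicate 3.

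The same library was highest for most members. High fat diet replicate 2 was the highest library for 33 of the 40 members, normal diet replicate 1 for 4 (Tk1, Pcna, Cdc45 and Hmgb2) and normal diet replicate 3 for 3 (Mcm2, Mcm3 and Mcm4). Among all genes tested, 12.6% were highest in high fat diet replicate 2. Normal diet replicate 2 was the lowest library for 20 members and high fat diet replicate 1 for 13, where 20.1% and 15.1% of all genes were lowest. Summed over the members, the level was 1036, 1560 and 1105 CPM in replicates 1 to 3 of the high fat diet and 1408, 1049 and 1263 CPM in normal diet replicates 1 to 3. The group means were 1234 ± 285 and 1240 ± 181 CPM (SD, n = 3), which differ by far less than either SD. High fat diet replicate 2 also had the lowest total count of the 6 libraries, 17470439, and its part in the result was not tested.

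**Figure D4:**
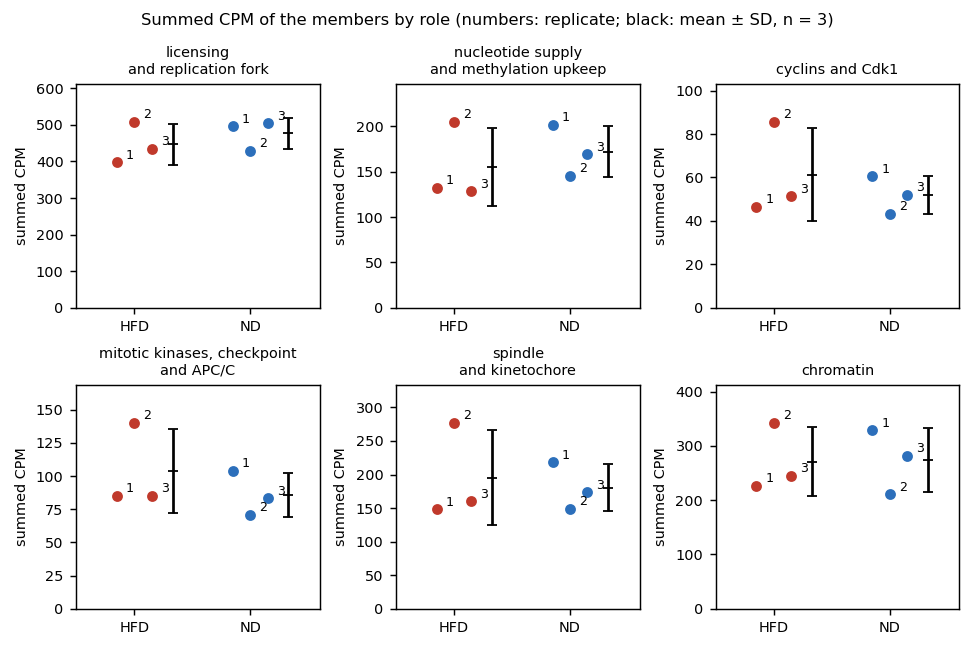
Summed CPM of the members of each role (y axis, from 0) by diet, with each library as a numbered point and the mean ± SD (n = 3) in black. Replicate 2 of the high fat diet is the highest point in each panel, and the other libraries of the diets overlap except in nucleotide supply and methylation upkeep, where the remaining high fat diet libraries (132 and 129 CPM) lie below all normal diet libraries (146 to 202 CPM).

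Late and early genes did not swing to the same degree. The 17 mitotic kinase, checkpoint, APC/C, spindle and kinetochore members summed to 233, 418 and 246 CPM in replicates 1 to 3 of the high fat diet and to 322, 220 and 256 CPM in normal diet replicates 1 to 3. The 14 members of licensing, replication and nucleotide supply summed to 530, 714 and 563 CPM and to 697, 575 and 674 CPM. The ratio of the former to the latter was 0.440, 0.585 and 0.436 on the high fat diet and 0.461, 0.383 and 0.381 on the normal diet. High fat diet replicate 2 had the highest ratio, and normal diet replicate 1 lay above the other two high fat diet libraries, so the diets overlapped (0.487 ± 0.085 and 0.408 ± 0.046, SD, n = 3). The roles' median log2 fold changes were -0.09 for licensing and fork genes, -0.09 for nucleotide supply and methylation upkeep, 0.20 for cyclins and Cdk1, 0.25 for mitotic kinases, checkpoint and APC/C, 0.30 for spindle and kinetochore and 0.03 for chromatin.

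Genes outside the set with a pattern most like Mki67 were sought among 10501 genes whose mean reached 5 CPM. The closest were the histone chaperone gene Asf1b, the mitotic kinesin gene Kif20b, Arhgef39, the phosphatase gene Ptpn11 and Cep55, which acts in abscission. Their Pearson correlations of log2 CPM with Mki67 over the 6 libraries were 0.986, 0.985, 0.975, 0.975 and 0.973, as a description of libraries that include both diets and share their depth.

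Wider lists of cell cycle control held 0 calls in edgeR. Of 24 further genes tested from the replication machinery, 0 passed (2 higher and 1 lower at an unadjusted p of 0.05), with a median log2 fold change of -0.05. Pola1, the catalytic subunit of the polymerase that starts DNA strands, was at 30.2 ± 2.83 CPM in high fat fed mice and 38.4 ± 3.38 CPM in normal diet mice (SD, n = 3; adjusted p = 0.160 in edgeR), and Mcm10, a fork factor, at 19.6 ± 5.57 and 12.2 ± 2.05 CPM (0.196). Of 34 further genes of the mitotic apparatus, 0 passed, also unadjusted, and the median was 0.12. Spc24 (kinetochore) stood at 5.84 ± 1.41 and 4.04 ± 0.752 CPM and the centromeric histone gene Cenpa at 54.1 ± 7.42 and 79.4 ± 27.0 CPM (adjusted p = 0.315 and 0.338 in edgeR). These lists, like the members, therefore gave no call in either direction with all 6 libraries.

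Some upstream regulators of division stood nearer to the threshold than the members did. Ccnd1 and Ccnd2 encode D-type cyclins, which carry growth signals to the cell cycle. Ccnd1 was at 91.3, 92.2 and 86.2 CPM in high fat fed mice and at 129, 112 and 158 CPM in normal diet mice. The groups did not overlap, and its log2 fold change was -0.56 ± 0.13 (SE; adjusted p = 0.0950 in edgeR; 0.00507 in DESeq2). Ccnd2 was at 23.6, 24.7 and 27.6 CPM and at 48.1, 26.4 and 80.1 CPM (-1.03 ± 0.38; SE, adjusted p = 0.224 in edgeR; 0.0487 in DESeq2), with normal diet replicate 2 among the high fat diet libraries. Of the 8 G1 cyclin and CDK genes, 0 passed in edgeR and 3 were lower unadjusted. The CDK inhibitors gave 0 of 7 (1 lower unadjusted, median -0.31). Cdkn1b (p27) was at 119, 116 and 114 CPM in high fat fed mice and at 152, 120 and 161 CPM in normal diet mice without overlap (adjusted p = 0.213 in edgeR), and Cdkn1a (p21) at 129, 161 and 169 CPM and at 368, 123 and 289 CPM (0.346). Cyclins D1 and D2 and both inhibitors thus had lower means on the high fat diet without a call in edgeR.

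The transcription factors of the programme gave no call. In the Rb and E2F family 0 of 13 passed (1 higher unadjusted, median 0.11). E2f2, an activating E2F, stood at 18.5, 18.6 and 21.1 CPM in high fat fed mice and at 13.3, 7.47 and 14.3 CPM in normal diet mice, without overlap (log2 fold change 0.73 ± 0.24; SE, adjusted p = 0.178 in edgeR), and E2f6, a repressive E2F, at 13.5 ± 0.758 and 11.6 ± 0.482 CPM (SD, n = 3; 0.351). The MuvB, B-Myb and FoxM1 list gave 0 of 7 (0 unadjusted, median -0.02), with Lin54, the MuvB subunit that binds the CHR, at 23.7 ± 2.94 and 33.7 ± 9.76 CPM and Mybl2 (B-Myb) at 5.56 ± 0.503 and 6.78 ± 1.004 CPM (adjusted p = 0.288 and 0.453 in edgeR). Checkpoint and damage genes gave 0 of 9 (0 unadjusted, median 0.12), with Chek2 at 16.2 ± 2.07 and 12.8 ± 1.93 CPM and Trp53 (p53) at 72.1 ± 2.69 and 64.4 ± 4.28 CPM (0.300 and 0.310).

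Macrophage growth signals and restraints gave 0 calls of 10 in edgeR (3 lower unadjusted, median -0.16). Klf2 encodes a zinc finger factor known for keeping T cells quiescent, and Klf4 a related factor known to restrain division in several cell types. Klf2 was at 531, 517 and 609 CPM in high fat fed mice and at 803, 900.4 and 710 CPM in normal diet mice, and Klf4 at 266, 324 and 330 CPM and at 464, 369 and 456 CPM. Both were lower in all 3 high fat diet libraries than in any normal diet library (log2 fold changes -0.54 ± 0.12 and -0.49 ± 0.13; SE, adjusted p = 0.0923 and 0.127 in edgeR; 0.00376 and 0.0171 in DESeq2). The other gene lower unadjusted, Myc, was at 59.0, 65.3 and 84.9 CPM and at 105, 132 and 86.9 CPM. Its groups did not overlap either (log2 fold change -0.63 ± 0.19; SE, adjusted p = 0.166 in edgeR; 0.0474 in DESeq2). Without normal diet replicate 2, which lay nearest to the high fat diet in several of these genes, edgeR called, among the 2 genes of smallest p from each pathway list, Ccnd1 (adjusted p = 0.0114), Ccnd2 (0.0272), Cdkn1b (0.0145), Cdkn1a (0.0135), Lin54 (0.0273), Cenpa (0.0116) and Klf4 (0.0246) lower and E2f2 (0.0492) higher. In that setting 1385 of all genes were called, against 91 with all libraries, and 0 of the 40 members. For the genes called lower, this left out the normal diet library nearest to the high fat diet, which widens the gap. For E2f2 it left out the farthest one (7.47 CPM), which narrows both the gap and the spread within the normal diet. The calls reuse the same libraries and are no separate support for a diet difference. With each other library left out in turn, between 0 and 22 of all genes were called.

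Transcripts of other cell types were present, and their summed levels are given because any dividing cell can contribute to the members. Markers of neutrophils and their precursors were at 137, 105 and 124 CPM in high fat fed mice and 27.7, 13.1 and 49.5 CPM in normal diet mice, with 3 of 12 called higher. Monocyte and recruited macrophage markers were at 1332, 1640 and 1611 CPM and at 768, 459 and 714 CPM (2 of 8 higher). Hepatocyte markers were at 7319, 4444 and 4463 CPM and at 485, 2306 and 1996 CPM (1 of 9 higher), and dendritic cell markers at 172, 196 and 184 CPM and at 392.3, 189 and 393 CPM (1 of 8 lower). The first 3 of these sums did not overlap between the diets, and the dendritic cell sum did so through normal diet replicate 2. DESeq2 called more of these markers than edgeR did, with 9 of 12 neutrophil, 5 of 8 monocyte and 5 of 9 hepatocyte markers higher. It called 3 of 8 dendritic cell markers lower. The monocyte sum was mostly Fn1 (fibronectin), and without Fn1 it was 487, 484 and 721 CPM and 416, 222 and 468 CPM. Lists with 0 calls in edgeR were Kupffer cell (7 tested, 16411 ± 1798 and 17416 ± 4088 CPM on the high fat and normal diet, SD, n = 3), T cell (6 tested, 58.2 ± 7.60 and 50.9 ± 2.57), B and plasma cell (9 tested, 416 ± 33.6 and 429 ± 51.1), NK and innate lymphoid (8 tested, 91.1 ± 24.8 and 155 ± 118), erythroid (4 tested, 31.1 ± 7.19 and 15.8 ± 3.64), sinusoidal endothelium (7 tested, 1846 ± 167 and 2632 ± 701), and stellate cell and cholangiocyte (8 tested, 35.5 ± 6.91 and 78.2 ± 49.7). Of these, the erythroid sum was higher in every high fat diet library (38.5, 30.7 and 24.1 CPM, against 14.2, 20.0 and 13.3 CPM). The endothelial and the stellate and cholangiocyte sums were lower in every high fat diet library, while the other 4 overlapped. Each of these separations rested on 1 leading marker. Without Epor, Cdh5 and Dcn in turn, the erythroid, endothelial, and stellate and cholangiocyte sums overlapped between the diets. The endothelial sum without Cdh5 was 932, 1203 and 1216 CPM, against 1451, 1136 and 2657 CPM. By contrast, the neutrophil sum without Retnlg and the hepatocyte sum without Alb stayed higher in every high fat diet library. The dendritic cell sum without Ccr7 was lower in every one. In the erythroid list the adjusted p of Epor, the erythropoietin receptor gene, was 0.0536 in edgeR and 5.3e-05 in DESeq2, and that of Alas2, a heme synthesis enzyme gene, 0.109 and 0.00336. The T cell sum was mostly Icos, a costimulatory receptor gene (44.7 ± 7.68 and 28.8 ± 6.99 CPM). Without Icos the other T cell markers summed to 11.4, 13.6 and 15.7 CPM in high fat fed mice and to 24.1, 17.1 and 25.2 CPM in normal diet mice, so the order of the diets turned. Cd4 stood at 8.81 ± 1.99 and 15.7 ± 2.18 CPM (adjusted p = 0.110 in edgeR; 0.00830 in DESeq2). In the other lists without an edgeR call, DESeq2 called the B cell marker Cd79b higher on the high fat diet. It called the endothelial marker Pecam1 and the stellate cell marker Dcn lower. No marker found in the table was at 0 counts in all libraries. High fat diet replicate 2, the library with the most cell cycle RNA, held the highest Fn1 (1155 CPM) and Icos (53.4 CPM) of the 6 libraries, and through them the highest monocyte and T cell sums. Without these genes its monocyte sum (484 CPM) was the lowest of its diet, close to the 487 CPM of high fat diet replicate 1. Its T cell sum without Icos lay below all normal diet libraries, as did those of the other high fat diet libraries. Its neutrophil sum was also the lowest of its diet. Their part in the levels of the members was not tested.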

How the data were processed

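Libraries were made from poly(A)-selected RNA with random hexamer priming, per the labels' protocols, which name no step that keeps the strand. The authors deposited 1 table with raw read counts, a normalised signal (counts divided by 1 size factor per library, between 0.885 and 1.18), FPKM values, and their own log2 fold change, p-value and adjusted p-value for the diets. The submitters' processing notes list the mm10 build and the tools STAR-Fusion, DESeq, edgeR, StringTie, featureCounts, STAR and HISAT2; their versions and settings were not stated. All 40 member names matched GENCODE symbols by Ensembl identifier. GENCODE also lists pseudogene or related copies of Pcna, Ccnb1, Ccnb2, Tyms and Stmn1, and how reads that map to several places were counted is not stated, so the values of these genes are uncertain.

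Counts were tested with edgeR 4.0.16 (R 4.3.3): TMM scaling, the default low-count filter, a quasi-likelihood test with a robust prior, and Benjamini-Hochberg adjustment over 14361 genes at 0.05. The common biological coefficient of variation was 20.9%. CPM is relative to the TMM-scaled library size. The SE is the log2 fold change over the root of its F statistic, and intervals use the test's degrees of freedom. DESeq2 1.42.0 and limma 3.58.1 (voom) were alternatives. The test was checked on simulated data. Replicates are separate mice, numbered in accession order.

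The members, 8 pathway lists, 11 marker lists, motifs and naming rule were chosen with earlier results of these data known. Values in every library are given for the 12 members of smallest p and 13 named ones (Mki67, Top2a, Pcna, Mcm2, Mcm5, Cdk1, Ccnb1, Ccna2, Ccne1, Ccne2, Rrm2, Stmn1 and Hmgb2), and of each pathway list the 2 genes of smallest p are named. Myc is named as well. Reads of genes that overlap on opposite strands cannot be told apart. Each library was also left out in turn.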

Additional observations from a re-analysis of the deposited data

How the results depend on the processing

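The count of 0 members called held under all 16 alternatives run: scaling by total counts, upper quartiles or median ratios, no filter on low counts, at least 5 CPM in 3 libraries (38 members tested), DESeq2, limma voom, no robust prior, the hepatocyte score as a covariate, each library left out in turn, and, added after seeing the data, both libraries of extreme hepatocyte score left out. The smallest adjusted p of a member among these was 0.0957, for Hmgb2 without normal diet replicate 2. Over all genes the count was 91, against 1206 in DESeq2, 0 with the hepatocyte score as a covariate (873 at an unadjusted p under 0.05), 0 without the libraries of highest and lowest hepatocyte score (1384 unadjusted), and between 0 and 1385 with a library left out. The median log2 fold change of the members was 0.11, against 0.64 with the covariate (37 of 40 above 0, and 7 at an unadjusted p under 0.05: Ccna2, Aurkb, Bub1, Bub1b, Prc1, Nusap1 and Cenpf), 0.37 without the extreme libraries (35 of 40), and between -0.16 and 0.23 with a library left out. Hepatocyte scores lay apart by diet (7.10 to 7.90 and 4.09 to 6.04), so score and diet cannot be fully separated in that fit. The cause of these shifts was not tested. The other scalings moved the median to between 0.10 and 0.14 and changed the sign of 1 or 2 members. With 3 mice per diet the median SE of a member's log2 fold change was 0.25. No paired analysis was possible because the mouse numbers in the labels are not shared between the diets.

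The log2 fold changes of 31 of the 56 genes followed (the members and 16 pathway genes) changed sign in at least 1 of these settings, and in each of those cases the gene was called in neither fit. Mcm7 lay below 0 with median-ratio scaling (-0.0039), upper-quartile scaling (-0.0043), no filter on low counts (-0.0074) and DESeq2 (-0.0027), and voom put Mcm7 (-0.019), Kif11 (-0.016) and Top2a (-0.00062) below 0. Total-count scaling put Mcm6 (0.016) and Ccne2 (0.0068) above 0. With the hepatocyte score as a covariate Mcm6 (0.26), Cdc6 (0.30), Cdc45 (0.61), Pcna (0.091), Tyms (0.20), Rrm1 (0.11), Tk1 (0.28), Uhrf1 (0.42), Ccne2 (0.30), Kif23 (0.48), Hmgb2 (0.25), Cdkn1a (0.21) and Lin54 (0.13) lay above 0. Without both libraries of extreme score Mcm6 (0.12), Cdc6 (0.096), Cdc45 (0.26), Tyms (0.037), Rrm1 (0.044), Uhrf1 (0.17), Ccne2 (0.19), Kif23 (0.12) and Hmgb2 (0.029) lay above 0. With 1 library left out at a time, the ranges that crossed 0 were those of Mcm6 (-0.15 to 0.074), Cdc45 (-0.30 to 0.13), Rrm1 (-0.25 to 0.072), Uhrf1 (-0.34 to 0.045), Ccne2 (-0.15 to 0.15), Mcm5 (-0.17 to 0.19), Mcm7 (-0.16 to 0.080), Rrm2 (-0.23 to 0.35), Cdk1 (-0.26 to 0.28), Ccnb2 (-0.16 to 0.33), Birc5 (-0.29 to 0.30), Plk1 (-0.011 to 0.54), Cdc20 (-0.15 to 0.45), Ube2c (-0.17 to 0.49), Kif11 (-0.23 to 0.21), Kif20a (-0.0037 to 0.51), Tpx2 (-0.060 to 0.33), Cenpe (-0.100 to 0.23), Cenpf (-0.030 to 0.57), Stmn1 (-0.060 to 0.46), Mki67 (-0.15 to 0.26), Top2a (-0.28 to 0.21), Tyms (-0.29 to 0.023) and Ccne1 (-0.098 to 0.42).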
